A study of Homo sapiens with 4 samples.

Results

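The genes described here are 34 genes of sterol and fatty acid synthesis and of their control, chosen by symbol: 5 control genes (SREBF1, SREBF2, SCAP, INSIG1 and INSIG2), 18 enzymes of the cholesterol pathway, 8 enzymes of fatty acid synthesis, 1 sterol carrier (STARD4) and 2 exporters (ABCA1 and ABCG1). Each symbol matched 1 of the 60766 features kept. Of the 34 genes, 33 reached a mean of 1 FPKM over the libraries and were among the 13605 features tested, and ABCA1 lay below that level. FPKM scales fragment counts by transcript length and by library size, so that levels of different genes can be set side by side.

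The cells were HCT116, an established human colon carcinoma line, and the study compared cells depleted of ARID1A with control cells. ARID1A belongs to SWI/SNF, a complex that uses ATP to move nucleosomes, and it binds DNA. RNA was sequenced from 2 libraries of cells carrying a short hairpin against ARID1A (genotype ARID1A knockdown) and 2 libraries of control cells (genotype control). All 4 came from cells grown in RPMI1640 medium with fetal bovine serum, glutamine, penicillin and streptomycin. What the control cells carried, the number of hairpins, whether the knockdown cells were a pool or 1 clone, and whether the replicates were separate cultures are not stated in the labels. The p-values therefore measure the spread between these libraries, which may be technical.

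Cholesterol and fatty acid synthesis share a transcriptional control. The SREBP proteins are made as membrane-bound precursors in the endoplasmic reticulum, where SCAP holds them and the INSIG proteins retain the complex while sterols are plentiful. When sterols are low, SCAP carries the precursor to the Golgi, proteases release its amino-terminal part, and this enters the nucleus and binds sterol regulatory elements in promoters, usually beside sites for NF-Y and Sp1. SREBP2, from SREBF2, acts chiefly on cholesterol genes and SREBP1, from SREBF1, chiefly on fatty acid genes. Because this control runs through cleavage of the protein, mRNA levels of the control genes do not measure how much of it is active.

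In the ARID1A knockdown libraries ARID1A itself (chr1:26693236-26782104) was at 7.05 and 6.13 FPKM, against 11.1 and 11.4 FPKM in control libraries, a log2 change of -0.69 ± 0.0774 (SE, limma, Benjamini-Hochberg adjusted p = 0.00438). With 2 libraries against 2, the exact two-sided permutation test of this gene alone gave p = 0.333, the smallest it allows. The depth, inferred from whole-fragment steps in the FPKM values, was 76000000 and 74500000 fragments in knockdown libraries and 69000000 and 71000000 in control libraries, so that 1 FPKM over a transcript of 2 kb stood for 117 to 129 fragments. The mitochondrial genome gave 6.04% and 5.65% of all FPKM in knockdown libraries, against 4.35% and 4.29% in control libraries, and their part in the results was not tested. Of 6 epithelial markers, KRT8, KRT18, KRT19 and CLDN4 rose and EPCAM fell with the knockdown, and all 6 were above 20 FPKM in every library. The 6 leukocyte markers summed to 3.25 and 3.84 FPKM in knockdown and to 7.69 and 6.21 FPKM in control libraries, mostly CD68, with CD3E and TYROBP at 0 in all. The 5 fibroblast markers summed to 5.96 and 6.26 FPKM in knockdown and to 4.94 and 3.66 FPKM in control libraries, mostly COL1A1. Markers of endothelium, adipocytes and hepatocytes each summed to at most 0.358 FPKM.

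The promoter windows of 4 genes are shown because these genes stand for the directions seen below: SREBF2, MSMO1 and ELOVL5 fell, and STARD4 rose. Each window runs from 250 bases before to 50 bases after the RefSeq start of the gene on GRCh38.p14, read 5′ to 3′ on the strand of the gene. Capitals mark the sterol regulatory element in its classical form, which is the first run of capitals in the SREBF2 window, and the NF-Y box (all other runs), on either strand.
SREBF2 (chr22:41832855-41833154, plus strand): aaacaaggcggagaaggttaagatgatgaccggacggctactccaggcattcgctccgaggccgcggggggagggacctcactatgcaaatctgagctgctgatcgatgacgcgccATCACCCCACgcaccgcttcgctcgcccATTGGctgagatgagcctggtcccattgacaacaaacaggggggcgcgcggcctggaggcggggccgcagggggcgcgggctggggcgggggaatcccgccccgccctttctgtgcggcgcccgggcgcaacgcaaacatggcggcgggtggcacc
MSMO1 (chr4:165327419-165327718, plus strand): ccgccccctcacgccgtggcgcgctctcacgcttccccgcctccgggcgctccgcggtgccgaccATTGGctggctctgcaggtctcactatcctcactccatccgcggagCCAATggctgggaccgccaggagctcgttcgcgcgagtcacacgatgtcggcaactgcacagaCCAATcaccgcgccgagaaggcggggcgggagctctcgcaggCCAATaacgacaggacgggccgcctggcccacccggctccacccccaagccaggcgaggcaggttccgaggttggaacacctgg
ELOVL5 (chr6:53348901-53349200, minus strand): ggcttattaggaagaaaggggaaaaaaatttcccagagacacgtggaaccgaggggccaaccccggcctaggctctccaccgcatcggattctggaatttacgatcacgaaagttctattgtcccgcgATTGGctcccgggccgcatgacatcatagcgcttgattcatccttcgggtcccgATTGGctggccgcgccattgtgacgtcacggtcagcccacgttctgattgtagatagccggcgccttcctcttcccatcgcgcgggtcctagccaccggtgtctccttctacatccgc
STARD4 (chr5:111512486-111512785, minus strand): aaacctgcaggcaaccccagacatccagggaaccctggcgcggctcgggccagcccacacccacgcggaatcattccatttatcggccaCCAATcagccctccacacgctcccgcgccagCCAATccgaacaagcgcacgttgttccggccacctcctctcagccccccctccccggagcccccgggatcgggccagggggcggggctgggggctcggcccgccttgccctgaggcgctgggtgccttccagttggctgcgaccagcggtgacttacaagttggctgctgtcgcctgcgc

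Windows of this kind were at hand for 29 of the 34 genes (all but ACAT2, FDFT1, SQLE, FASN and ABCG1). The classical element, marked above and searched on both strands, stood in the window of 1 of the 29, SREBF2. Among all 27305 genes with a window, 16 held it (0.0586%). Its relaxed form TCACNCCAC, which every classical match also satisfies, was again in SREBF2 alone of the 29 and in 1.39% of all genes. In SREBF2 the first base of the relaxed form lay 133 bases before the start, and that of the NF-Y box 106 bases before it. The NF-Y box CCAAT on either strand was in a window of 21 of the 29 genes (72.4%), against 39.7% of all genes. Where a gene had more than 1 window, a match in any of them counted. MSMO1 held 4, ELOVL5 and STARD4 held 2 each, and SREBF2 held 1. By outcome, an NF-Y box stood in 6 of the 9 genes with a window that fell, in 14 of the 18 that did not pass the test, and in STARD4. The Sp1 box GGGCGG was in 27 of the 29 (93.1%, against 48.3% of all genes) and the E-box CACGTG in 6 (20.7%, against 8.77%). All genes here are all those with a window, not matched to the 29 in level. A match of letters is a description of the window, not a binding site, and no match says only that these letters are not in it.

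Of the 33 genes tested, 11 fell, 2 rose and 20 did not pass at an adjusted p of 0.05, when 37.1% of all tested features passed in either direction. The background in each direction was 18.9% of features that fell and 18.2% that rose. The share of the genes that passed, 39.4%, was thus near that of all features, while 33.3% of the genes fell and their median log2 change was -0.13, against -0.003 over all features. Below 0 lay 25 of the 33 changes, against 50.4% of the changes over all features. In 24 of the 33 genes the knockdown and control libraries did not overlap, as in 72.3% of all tested features. The changes were small: among the 13 genes that passed, the absolute log2 change ran from 0.19 to 0.42 with a median of 0.36, and 0 of them reached 0.5, a size reached by 28.8% of all called features, whose median was also 0.36. The genes were abundant: 31 of the 33 lay above the median level of tested features, with a median of 37.4 FPKM against 12.0 FPKM over all. On leaving out any library fewer of the genes fell, as did fewer of all tested features, and both counts were lowest without a control library. Under 12 alternative settings 0 of the 13 changed sign. In each of the 13 the groups did not overlap, so leaving out a library could not change the sign. In bulk RNA, fewer cells of a type and less RNA per cell cannot be told apart.

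**Figure D1:**
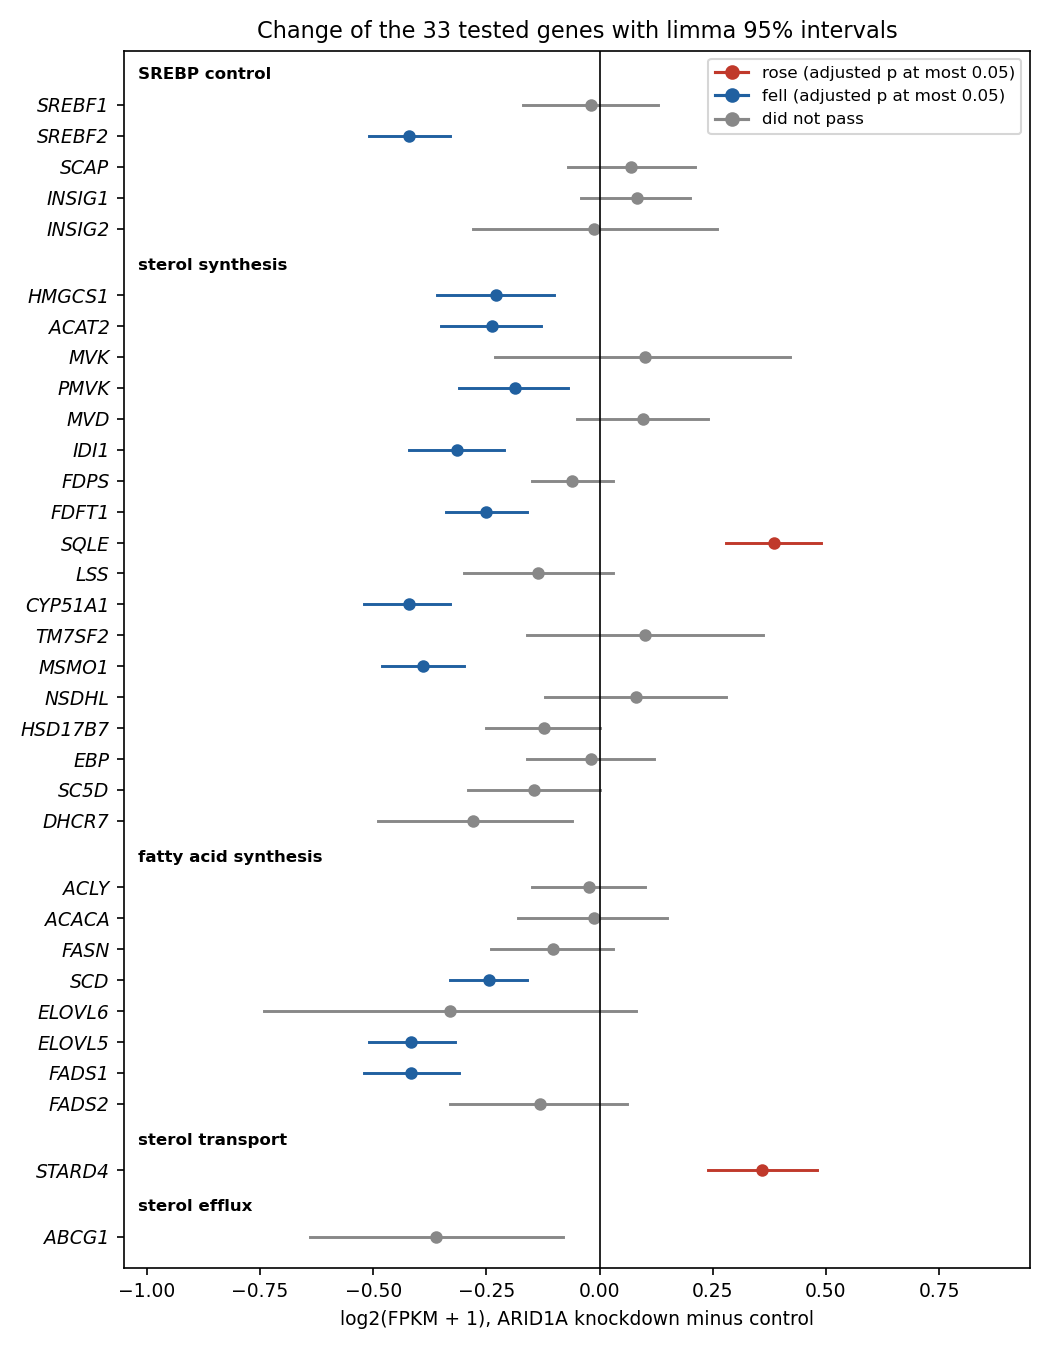
Log2 change of each of the 33 tested genes, ARID1A knockdown minus control on the log2(FPKM + 1) scale, with 95% limma intervals. Genes are grouped by role. Blue genes fell, red genes rose and grey genes did not pass; SQLE and STARD4 are the only red points, and SREBF2, CYP51A1, ELOVL5 and FADS1 lie lowest at -0.42.

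**Figure D2:**
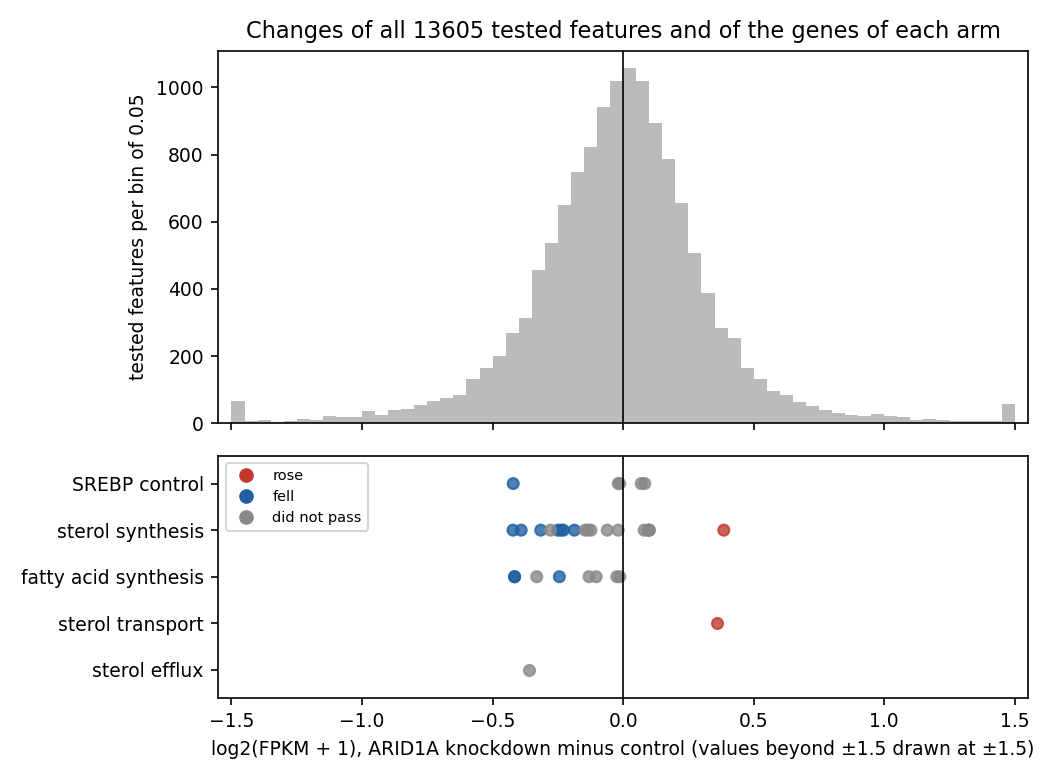
Upper panel, number of tested features per bin of log2 change (ARID1A knockdown minus control, log2(FPKM + 1)) over all 13605 features; lower panel, the tested genes by role on the same axis. The genes sit inside the bulk of the distribution, between -0.42 and 0.39, and all 8 fatty acid genes lie below 0.

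Among the control genes, SREBF2 fell and the other 4 did not pass. SREBF2 (chr22:41833079-41907307), the gene of the cholesterol-directed SREBP, was at 64.8 and 66.6 FPKM in ARID1A knockdown libraries, against 87.9 and 88.7 FPKM in control libraries. Both knockdown libraries lay well below both controls, with means of 65.7 ± 1.22 and 88.3 ± 0.596 FPKM (SD, n = 2 each), 1.34-fold lower in the knockdown. The log2 change was -0.42 ± 0.0354 (SE, limma, adjusted p = 0.00217). SREBF1, the gene of the fatty acid-directed SREBP, was at 77.3 and 70.4 FPKM in knockdown libraries, against 76.7 and 72.9 FPKM in control libraries, and the groups overlapped (log2 change -0.02, 95% interval -0.17 to 0.13). The 2 members of the pair thus stood at different ratios: SREBF2 over SREBF1 was 0.839 and 0.945 in knockdown libraries, against 1.15 and 1.22 in control libraries, a pair chosen after its values were seen.

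SCAP, the escort protein, was at 21.1 and 22.8 FPKM in knockdown libraries and at 21.2 and 20.5 FPKM in control libraries, which overlapped (log2 change 0.07, interval -0.07 to 0.21). INSIG1, the retention protein that is itself a target of SREBP, was at 43.9 and 45.1 FPKM in knockdown libraries and at 40.7 and 43.2 FPKM in control libraries (log2 change 0.08, interval -0.04 to 0.20, limma adjusted p = 0.219). INSIG2, which is much less dependent on SREBP, had 21.0 and 17.4 FPKM in knockdown libraries and 18.3 and 20.4 FPKM in control libraries (log2 change -0.01, interval -0.28 to 0.26). Neither INSIG gene passed, and the intervals leave room for small changes of either sign. RAI1, which shares bases with SREBF1, was at 7.29 to 10.7 FPKM over the 4 libraries, and SREBF2-AS1, which overlaps the start of SREBF2, was at 0.968 to 1.18 FPKM. Without a known strand setting their reads cannot be told apart from those of the genes where they overlap.

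**Figure D3:**
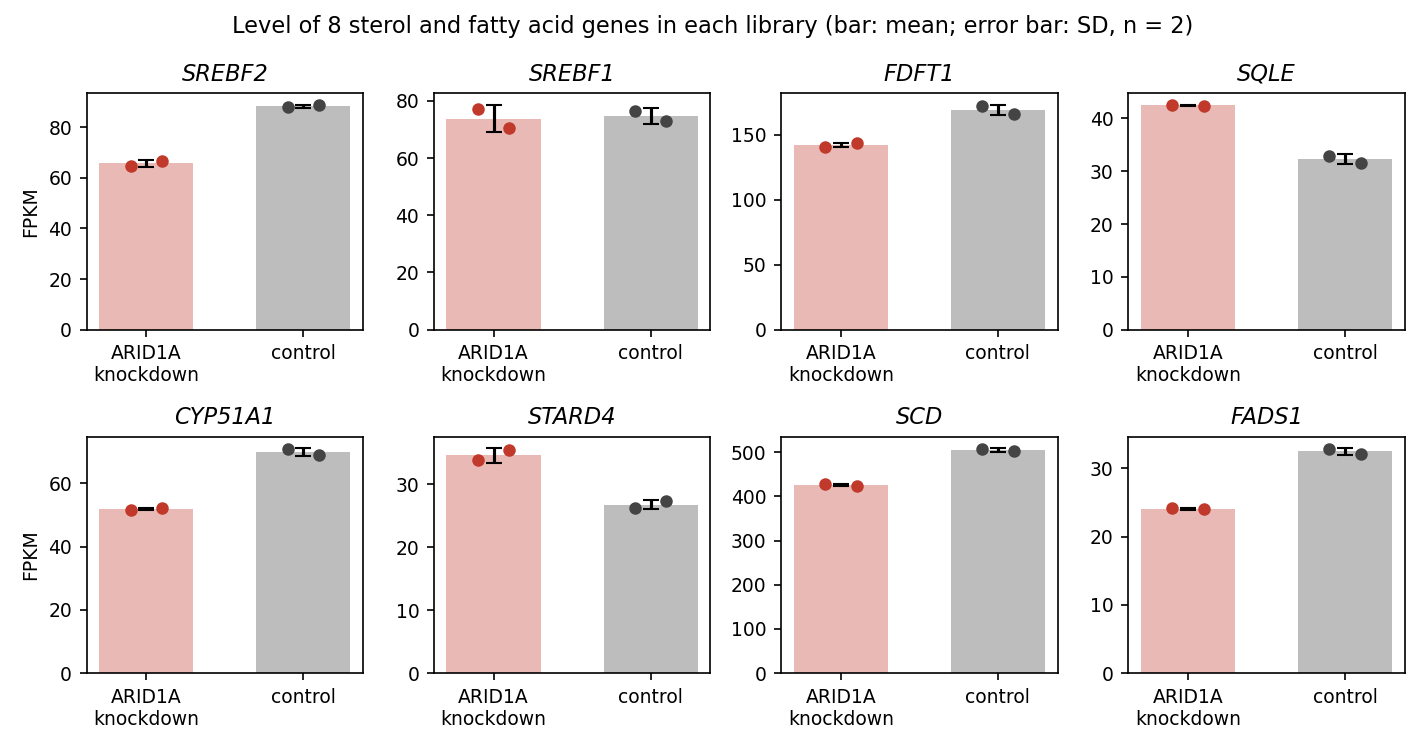
FPKM of 8 genes in each library, with ARID1A knockdown left of control; points are libraries, bars are means and error bars are SD (n = 2). SREBF2 fell to a mean of 65.7 FPKM in the knockdown, against 88.3 in control, while SQLE and STARD4 were higher in both knockdown libraries than in both controls.

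Of the 18 cholesterol pathway enzymes, 7 fell (38.9%, against 18.9% of all tested features), 1 rose and 10 did not pass. The median log2 change was -0.14, and fewer enzymes fell on leaving out any library. In the steps from acetyl-CoA to the farnesyl unit, 4 of 7 genes fell (57.1%) and 0 rose (limma, 0 also at an unadjusted p of 0.05). ACAT2, the cytosolic thiolase that makes acetoacetyl-CoA, was at 22.5 and 22.4 FPKM in knockdown libraries, against 26.3 and 27.0 FPKM in control libraries (log2 change -0.24). HMGCS1, which adds the next acetyl unit, was at 35.5 and 32.9 FPKM in knockdown libraries, against 40.55 and 39.95 FPKM in control libraries (log2 change -0.23 ± 0.0509, limma adjusted p = 0.0261). PMVK, the phosphomevalonate kinase, was lowest in level of those that fell, at 17.1 and 16.5 FPKM in knockdown and 19.1 and 19.4 FPKM in control libraries (log2 change -0.19). IDI1, the isomerase of the isoprene unit, was at 54.3 and 52.3 FPKM in knockdown libraries, against 67.8 and 65.4 FPKM in control libraries, with a log2 change of -0.32 ± 0.0417 (SE, limma, adjusted p = 0.00651). In each of these 4 genes both knockdown libraries lay below both controls, and the groups did not overlap in 72.3% of all tested features.

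The other 3 early enzymes did not pass. MVK, the mevalonate kinase, averaged 15.8 ± 2.83 FPKM in knockdown and 14.6 ± 0.821 FPKM in control libraries (SD, n = 2 each), and the groups overlapped (log2 change 0.10, interval -0.23 to 0.42). MVD, the mevalonate diphosphate decarboxylase, averaged 60.5 ± 2.93 FPKM in knockdown and 56.5 ± 2.51 FPKM in control libraries (SD, n = 2 each; log2 change 0.10, interval -0.05 to 0.24). FDPS, the farnesyl diphosphate synthase and the most abundant of the early enzymes, averaged 123.6 ± 2.23 FPKM in knockdown and 129.0 ± 0.642 FPKM in control libraries (log2 change -0.06, interval -0.15 to 0.03). The 4 early calls depended on the setting: PMVK lost its call under 7 of the 12 alternative settings (highest limma adjusted p 0.14), HMGCS1 under 5 (0.121), ACAT2 under 3 (0.0802) and IDI1 only without control replicate 1 (0.0527). ACAT2 shares its 3′ end with TCP1, at 266 and 263 FPKM in knockdown and 235 and 225 FPKM in control libraries, and MVK shares its start with MMAB, so reads at those ends cannot be assigned to 1 gene with certainty.

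At the squalene steps, neighbouring enzymes moved in opposite directions. FDFT1 (chr8:11795573-11839304), which joins farnesyl units into squalene, was at 141 and 143 FPKM in knockdown libraries, against 172 and 166 FPKM in control libraries, a log2 change of -0.25 ± 0.0358 (SE, limma, adjusted p = 0.00817; 0.0654 without control replicate 1). SQLE (chr8:124998497-125022283), the squalene epoxidase that takes the next step, was at 42.5 and 42.4 FPKM in knockdown libraries, against 32.9 and 31.6 FPKM in control libraries. Both knockdown libraries lay above both controls, by 1.32 times on the means of 42.45 ± 0.135 and 32.3 ± 0.965 FPKM (SD, n = 2 each), with a log2 change of 0.39 ± 0.0412 (SE, limma, adjusted p = 0.0039). SQLE was the only one of the 18 enzymes that rose, and it passed under all 12 alternatives. LSS, which closes the rings to lanosterol, was at 25.6 and 23.4 FPKM in knockdown and 27.7 and 26.2 FPKM in control libraries (log2 change -0.14, interval -0.30 to 0.03). The ratio of SQLE to FDFT1 was 0.302 and 0.296 in knockdown libraries, against 0.192 and 0.190 in control libraries, and that of SQLE to LSS was 1.66 and 1.81 in knockdown libraries, against 1.19 and 1.21 in control libraries. These pairs too were chosen after their values were seen.

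After lanosterol, 2 of 8 genes fell and 0 rose (limma, 0 also at an unadjusted p of 0.05). The share that fell was 25%, against 18.9% of all tested features. CYP51A1 (chr7:92112153-92134803), the lanosterol demethylase that opens this branch, was at 51.7 and 52.2 FPKM in knockdown libraries, against 70.7 and 69.1 FPKM in control libraries. Its log2 change was -0.42 ± 0.0359 (SE, limma, adjusted p = 0.00223), 1.35-fold lower with no overlap. MSMO1 (chr4:165327667-165343164), the methylsterol monooxygenase that works with NSDHL and HSD17B7 in removing the remaining methyl groups, was at 61.5 and 60.1 FPKM in knockdown libraries, against 79.9 and 80.1 FPKM in control libraries (log2 change -0.39 ± 0.0352, limma adjusted p = 0.00256). Both calls held under all 12 alternatives. The partners of MSMO1 did not pass: NSDHL had 16.4 and 17.6 FPKM in knockdown and 17.1 and 15.0 FPKM in control libraries, and HSD17B7 had 15.5 and 14.9 FPKM in knockdown and 16.9 and 16.5 FPKM in control libraries.

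The remaining enzymes after lanosterol gave smaller or noisier differences. DHCR7, which reduces the final sterol precursor to cholesterol, was at 45.1 and 50.2 FPKM in knockdown libraries, against 61.7 and 54.4 FPKM in control libraries, with no overlap (log2 change -0.28 ± 0.0828, limma adjusted p = 0.0554). It passed under 4 of the 12 alternatives (lowest adjusted p 0.0251), and the overlapping feature AP002387.2 was at 10.8 to 14.5 FPKM. SC5D, the lathosterol desaturase, was at 32.2 and 29.6 FPKM in knockdown and 33.6 and 34.9 FPKM in control libraries (log2 change -0.15, interval -0.29 to 0.00). EBP, the sterol isomerase, averaged 40.3 ± 2.51 FPKM in knockdown and 40.8 ± 0.11 FPKM in control libraries, and TM7SF2, a sterol reductase, averaged 61.6 ± 7.88 FPKM in knockdown and 57.1 ± 3.75 FPKM in control libraries (SD, n = 2 each). Both of these overlapped between the groups. Summed over the 18 enzymes the level was 853 and 868 FPKM in knockdown libraries, against 964 and 944 FPKM in control libraries.

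Of the 8 fatty acid genes, 3 fell, 0 rose and 5 did not pass, with a median log2 change of -0.19 (limma, 0 rose also at an unadjusted p of 0.05). The share that passed was 37.5%, near the 37.1% of all tested features that passed in either direction. Of all tested features 18.9% fell. The calls lay in the later steps. None of the 3 genes that build the chain passed, at an unadjusted p of 0.05 or under any of the 12 alternatives. ACLY, which supplies cytosolic acetyl-CoA from citrate, was at 75.9 and 70.8 FPKM in knockdown and 75.5 and 73.6 FPKM in control libraries. ACACA, the acetyl-CoA carboxylase, was at 21.0 and 23.2 FPKM in knockdown and 22.8 and 21.7 FPKM in control libraries. FASN, the fatty acid synthase, was at 90.9 and 95.5 FPKM in knockdown and 103.6 and 96.7 FPKM in control libraries. The 95% intervals of their log2 changes were -0.15 to 0.10, -0.18 to 0.15 and -0.24 to 0.03.

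Of the 5 genes that elongate or desaturate the finished chain, 3 fell (60%, against 18.9% of all tested features). SCD (chr10:100347233-100364826), the stearoyl-CoA desaturase and the most abundant of all 34 genes, was at 428 and 424 FPKM in knockdown libraries, against 507 and 501.5 FPKM in control libraries (log2 change -0.24 ± 0.0318, limma adjusted p = 0.00631, highest 0.0646 on leaving out a library). ELOVL5 (chr6:53267398-53349179), an elongase of polyunsaturated chains, was at 45.7 and 44.5 FPKM in knockdown libraries, against 59.8 and 61.1 FPKM in control libraries (log2 change -0.42 ± 0.0377, limma adjusted p = 0.0026). FADS1 (chr11:61799627-61829318), a desaturase of the same polyunsaturated route, was at 24.2 and 24.0 FPKM in knockdown libraries, against 32.8 and 32.1 FPKM in control libraries (log2 change -0.42 ± 0.0395, limma adjusted p = 0.00288). In all 3 both knockdown libraries lay below both controls, where 72.3% of all tested features had groups that did not overlap. ELOVL5 and FADS1 passed under all 12 alternatives, whereas SCD lost its call without either control library.

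FADS2, the desaturase that precedes FADS1 on this route, was far lower in level, at 5.73 and 6.34 FPKM in knockdown and 6.48 and 6.91 FPKM in control libraries, and did not pass (log2 change -0.13, interval -0.33 to 0.06). The annotated spans of FADS1 and FADS2 overlap, and FADS2 also overlaps FEN1, which was at 50.2 and 53.9 FPKM in knockdown and 41.9 and 39.7 FPKM in control libraries. ELOVL6, which lengthens the palmitate made by FASN, had the largest SE of the log2 change among the 33 genes (0.159). It was at 22.4 and 30.3 FPKM in knockdown libraries, against 30.5 and 35.8 FPKM in control libraries (log2 change -0.33, interval -0.74 to 0.08, limma adjusted p = 0.167). Without knockdown replicate 2 its log2 change was -0.54 with a limma adjusted p of 0.0371, and with the replicate block on all 4 libraries it was -0.33 with a limma adjusted p of 0.0341. ELOVL6 did not pass under the other 10 alternatives. The 8 genes together summed to 713.5 and 718 FPKM in knockdown libraries, against 839 and 829.5 FPKM in control libraries, with SCD the greater part of each sum.

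Sterol transport and export gave one gene that rose and none that fell past the threshold. STARD4 (chr5:111496033-111512590), a soluble carrier that moves cholesterol between membranes and is a target of SREBP2, was at 33.8 and 35.4 FPKM in knockdown libraries, against 26.2 and 27.2 FPKM in control libraries. Both knockdown libraries lay above both controls, 1.29 times higher on the means of 34.6 ± 1.14 and 26.7 ± 0.73 FPKM (SD, n = 2 each; log2 change 0.36 ± 0.0465, limma adjusted p = 0.00627), and the call held under all 12 alternatives. STARD4 thus moved opposite to SREBF2. ABCG1, an exporter of cholesterol controlled by the LXR receptors, was low, at 1.53 and 1.86 FPKM in knockdown libraries, against 2.57 and 2.35 FPKM in control libraries. The groups did not overlap, but the change missed the threshold (log2 -0.36 ± 0.108, limma adjusted p = 0.0563, range 0.039 to 0.197 over the alternatives). ABCA1, the other LXR-controlled exporter, was at 0.366 and 0.284 FPKM in knockdown and 0.332 and 0.292 FPKM in control libraries, below the level tested. Fitted with no filter, its log2 change was 0.01 ± 0.0509 (SE, limma, adjusted p = 0.896).

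Other genes around these pathways, from 6 lists that leave the 34 genes out, moved in both directions. The share that passed was 63.6% for SREBP processing, 45.5% for the isoprenoid branches, 50% for uptake and 28.6% for LXR, export and esterification. It was 64% for fatty acid supply and 18.2% for fatty acid oxidation, against 37.1% of all tested features. Of 11 genes of SREBP processing and turnover, 3 rose and 4 fell (1 to 2 and 2 on leaving out a library, with 1 that rose without knockdown replicate 1 or either control). FBXW7, the ubiquitin ligase subunit that marks nuclear SREBP for degradation, had a log2 change of 0.52 at 7.66 and 6.38 FPKM in knockdown libraries, against 4.44 and 4.70 FPKM in control libraries (limma adjusted p = 0.0168, highest 0.0844 over the alternatives). MBTPS2, the Golgi protease that makes the second cut in SREBP, fell by 0.41 on the log2 scale. Of 11 genes of the isoprenoid branches, which use the same early enzymes, 3 rose and 2 fell. DHDDS, of dolichol synthesis, had a log2 change of 0.30, PDSS2, of ubiquinone synthesis, 0.29, and RABGGTB, a prenyltransferase subunit, -0.26. The isoprenoid counts were the least firm, with 0 to 1 genes that rose and 0 to 2 that fell on leaving out a library and 0 in either direction with no filter. DHDDS, PDSS2 and RABGGTB each lost the call under 3 or more alternatives.

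Of 14 tested genes of sterol uptake and intracellular transport, 7 fell and 0 rose (limma, 9 and 0 at an unadjusted p of 0.05), with a median log2 change of -0.24. The share that fell was 50%, against 18.9% of all tested features. Among the fits leaving out a library, the count that fell was lowest without control replicate 1. NPC2, which hands cholesterol on in lysosomes, was at 166 and 179 FPKM in knockdown libraries, against 273 and 269.5 FPKM in control libraries (log2 change -0.65, limma adjusted p = 0.00146). SCARB1, a lipoprotein receptor, was at 58.2 and 54.3 FPKM in knockdown libraries, against 79.7 and 86.4 FPKM in control libraries (log2 change -0.55), and SORT1, a sorting receptor, fell by 0.42 on the log2 scale (limma adjusted p = 0.061 without control replicate 1). Of 7 tested genes of LXR, export and esterification, 1 rose and 1 fell: NCEH1, a cholesterol ester hydrolase, was at 13.1 and 13.6 FPKM in knockdown libraries, against 8.43 and 8.91 FPKM in control libraries (log2 change 0.57). NR1H2, which encodes an LXR receptor, was at 20.2 and 20.5 FPKM in knockdown libraries, against 31.2 and 30.7 FPKM in control libraries (log2 change -0.58).

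Of 25 tested genes of fatty acid supply, activation and further chain handling, 13 fell and 3 rose, with a median log2 change of -0.19. The share that fell was 52%, against 18.9% of all tested features. Fewer fell on leaving out any library, the fewest without control replicate 1. ACSL5, an acyl-CoA synthetase that activates long chains, was at 36.1 and 36.2 FPKM in knockdown libraries, against 100.5 and 98.0 FPKM in control libraries, a log2 change of -1.43 (limma adjusted p = 0.000227). MID1IP1, an activator of acetyl-CoA carboxylase, was at 52.2 and 52.1 FPKM in knockdown libraries, against 87.7 and 85.9 FPKM in control libraries (log2 change -0.72). ELOVL1, an elongase of very long saturated chains, was at 126 and 123 FPKM in knockdown libraries, against 61.7 and 55.9 FPKM in control libraries (log2 change 1.07). ELOVL1 and ELOVL5 thus moved in opposite directions. Of 11 tested genes of fatty acid oxidation, 2 rose and 0 fell (limma, 2 and 3 at an unadjusted p of 0.05), and fewer rose without control replicate 2. The share that rose was 18.2%, the same as the 18.2% of all tested features. SLC25A20, the carnitine carrier of mitochondria, was at 12.3 and 11.1 FPKM in knockdown libraries, against 6.89 and 7.08 FPKM in control libraries (log2 change 0.67).

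**Figure D4:**
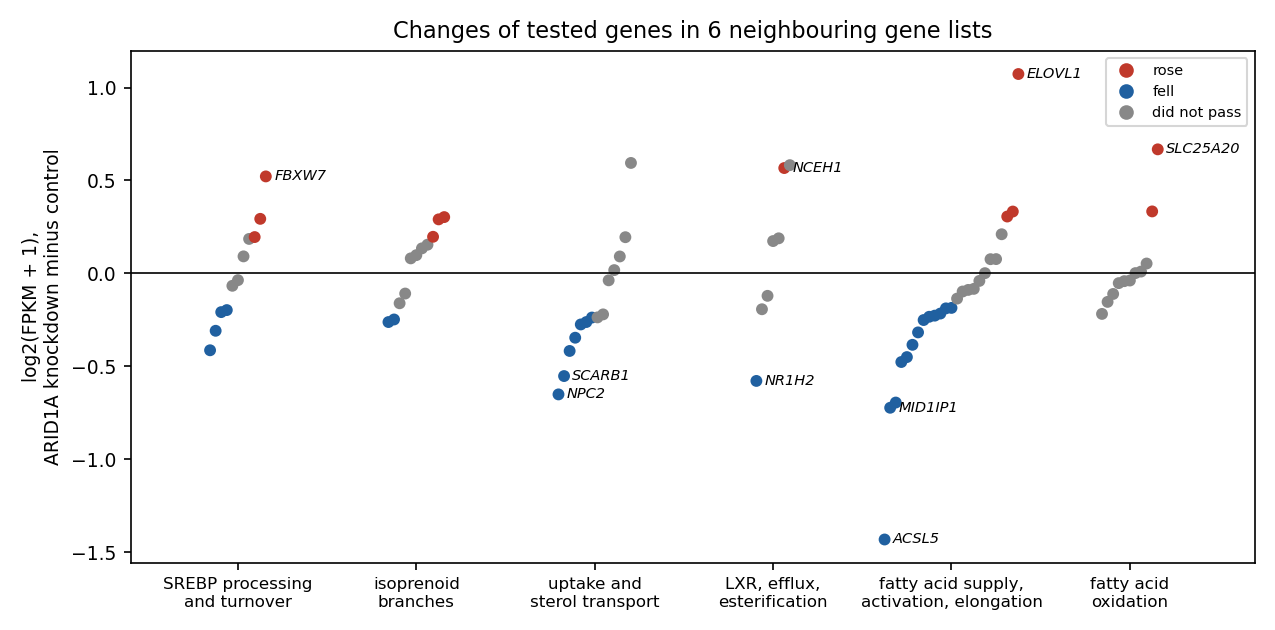
Log2 change (ARID1A knockdown minus control, log2(FPKM + 1)) of each tested gene of the 6 further lists, 1 column per list, coloured by whether the gene rose, fell or did not pass. The uptake and fatty acid supply lists have most points below 0, with ACSL5 lowest at -1.43 and ELOVL1 highest at 1.07.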

How the data were processed

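RNA was measured in 2 ARID1A knockdown and 2 control libraries. The authors deposited FPKM values, 1 table per library, per the file headers. STAR, Cufflinks and build GRCh38 are named, per the submitters' processing notes; their versions, the annotation and the strand setting are not stated there. Of 60811 rows per table, 45 second copies of pseudoautosomal genes were dropped, and 2347 values near 0 were set to 0.

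FPKM values are not counts, so the comparison was made on log2(FPKM + 1), knockdown minus control, for features with a mean of at least 1 FPKM. This scale understates changes of low genes. The fit used limma 3.58.1 under R 4.3.3 (eBayes with trend) over all tested features, with calls at a Benjamini-Hochberg adjusted p of 0.05, and the script was tested on simulated data. Depth used transcript lengths of GENCODE release 29; low values were whole fragments, within 0.1, in 83.4% to 86.3% of cases. Promoter windows came from RefSeq on GRCh38.p14.

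Members and lists were chosen with earlier results of these data known. The genes named are all 34, ARID1A, and up to 3 called genes of each further list by absolute change. Some genes of the pathways and lists are not reported here. The alternatives were another pseudocount, a stricter and no filter, TPM, median-ratio and quantile scaling, no trend, each library left out, and a replicate block.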

Additional observations from a re-analysis of the deposited data

How the results depend on the processing

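Over 12 alternatives, 7 of the 13 called genes stayed past the threshold in each (SREBF2, SQLE, CYP51A1, MSMO1, STARD4, ELOVL5 and FADS1), 6 lost the call in at least 1, and 0 changed sign. The sign of these 13 could not change on leaving out a library, since their groups did not overlap. With no filter, all called features fell to 2786 (1373 rose and 1413 fell), and isoprenoid genes that rose or fell to 0. In that setting 1 SREBP processing gene rose and 8 fatty acid supply genes fell (median log2 -0.12). Of the LXR, export and esterification list, 2 genes rose (median 0.06). With a filter of 5 FPKM, 2 genes of the LXR, export and esterification list rose, 1 fatty acid oxidation gene fell, and the fatty acid supply median was -0.22. With TPM, 1 isoprenoid gene rose, the uptake median was -0.27, 2 genes of the LXR, export and esterification list rose and 2 oxidation genes fell. With quantile normalization, 2 genes of the LXR, export and esterification list rose and 2 oxidation genes fell. With no trend, 1 isoprenoid gene rose. Leaving out each library gave 2146 to 3368 called features (1057 to 1665 rose, 1037 to 1805 fell) and 7 to 12 called members (5 to 10 fell, 5 without control replicate 1). It gave 3 to 6 called sterol genes (2 to 5 fell), medians of -0.08 to 0.05 for control genes, -0.20 to -0.09 for sterol genes and -0.22 to -0.10 for fatty acid genes. In the further lists it gave 1 to 2 SREBP processing genes that rose and 2 that fell, 0 to 1 isoprenoid genes that rose and 0 to 2 that fell, 0 to 1 uptake genes that rose and 2 to 7 that fell, 6 to 10 supply genes that fell, and 1 to 2 oxidation genes that rose. Of the genes that did not pass, 8 changed sign on leaving out a library, with log2 changes between -0.084 and 0.047 for SREBF1, -0.14 and 0.113 for INSIG2, -0.074 and 0.272 for MVK, -0.028 and 0.23 for TM7SF2, -0.008 and 0.168 for NSDHL, -0.081 and 0.043 for EBP, -0.073 and 0.025 for ACLY, and -0.083 and 0.057 for ACACA. The cause of these shifts was not tested. The labels do not say what same-numbered libraries shared. The replicate 1 minus 2 differences of the knockdown and control groups correlated at -0.00993 over features, which does not settle whether they were paired. With the replicate block, PMVK lost its call (limma adjusted p = 0.0677), ELOVL6 gained one (0.0341), 1 isoprenoid gene rose and 1 uptake gene rose. With 2 libraries a group, 95% intervals limit what can be said of the genes that did not pass.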

Other observations

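Features that share bases with the genes described gave changes of their own. MMAB, of cobalamin metabolism, lies head to head with MVK and was at 12.3 and 15.6 FPKM in ARID1A knockdown libraries, against 24.7 and 27.4 FPKM in control libraries (log2 change -0.86 ± 0.121, limma adjusted p = 0.00784), whereas MVK did not pass. TCP1, a chaperonin subunit beside ACAT2, rose by 0.20 on the log2 scale and FEN1, a nuclease of DNA replication beside FADS2, by 0.34. RAI1, beside SREBF1, fell by 0.43. These 4 genes were singled out after their values were seen.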
